A study of Mus musculus with 18 samples.

Results

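The transcripts of 4 genes, the cyclin-dependent kinases Cdk16, Cdk17 and Cdk18 and the ubiquitin ligase Stub1, were followed by RNA sequencing in a mouse collecting duct cell line given the vasopressin analogue dDAVP. They were chosen by symbol from the 24111 symbols of the deposited count table, and all 4 were found there and in the FPKM table. Cdk18 was picked with its response to dDAVP in these libraries known, so its change with dDAVP is given as a description with no test. The other 3 were picked as its relatives or as a partner and were tested.

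The 9 dDAVP libraries came from confluent monolayers of mpkCCD cells (the subline mpkCCD11, per the labels) held in serum-free medium for 24 h and then given 0.1 nM dDAVP in the same medium for 24 h. The 9 control libraries came from monolayers handled alike without dDAVP. mpkCCD is an immortalised line from the mouse cortical collecting duct that keeps features of principal cells, among them vasopressin-dependent synthesis of aquaporin-2, so it is a model of 1 cell type outside the kidney. The labels give the treatment and a replicate number of 1 to 9, and nothing there says that the replicates came from separate cultures, so the p-values measure only the spread between these libraries, which may be technical.

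Cdk16, Cdk17 and Cdk18, also called PCTAIRE-1, PCTAIRE-2 and PCTAIRE-3, form a subfamily of cyclin-dependent kinases related to Cdk5. Cdk16 is switched on by cyclin Y rather than by the cyclins that drive division. Stub1, also called CHIP, is a U-box ubiquitin ligase that binds the chaperones Hsp70 and Hsp90 and marks their clients for degradation. In principal cells vasopressin acts through the V2 receptor, cAMP and protein kinase A to raise the amount of aquaporin-2 and to move it to the apical membrane, and both CDK18 and STUB1 have been linked to the turnover and trafficking of that channel.

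On mouse build GRCm38 (GENCODE M21), Cdk18 lies on chromosome 1 at 132112237 to 132139684, on the minus strand. Cdk17 lies on chromosome 10 at 93160875 to 93267071, on the plus strand. Stub1 lies on chromosome 17 at 25830505 to 25833404, on the minus strand. Cdk16 lies on the X chromosome at 20687954 to 20699880, on the plus strand. The 250 bases before the annotated start of Cdk18, picked for its response to dDAVP, and of its paralog Cdk16 are shown 5′ to 3′. These windows are given because cAMP acts on many promoters through the cAMP response element. They come from RefSeq on GRCm38.p6, Cdk18 from chr1:132139686-132139935 on the minus strand and Cdk16 from chrX:20687704-20687953 on the plus strand, and capitals mark the short site TGACG or its reverse complement CGTCA.
Cdk18 promoter: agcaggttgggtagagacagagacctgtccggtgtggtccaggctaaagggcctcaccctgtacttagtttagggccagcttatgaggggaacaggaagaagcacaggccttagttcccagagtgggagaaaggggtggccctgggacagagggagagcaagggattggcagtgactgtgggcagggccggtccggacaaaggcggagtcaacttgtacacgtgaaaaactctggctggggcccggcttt
Cdk16 promoter: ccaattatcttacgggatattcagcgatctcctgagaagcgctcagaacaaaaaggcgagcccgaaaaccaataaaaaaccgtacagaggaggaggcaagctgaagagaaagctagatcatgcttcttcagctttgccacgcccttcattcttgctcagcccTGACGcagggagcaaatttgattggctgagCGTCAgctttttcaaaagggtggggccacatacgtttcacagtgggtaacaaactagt
The Cdk18 window held 0 such sites, and the Cdk16 window held 2, starting 88 and 58 bases before the start. The table gives Cdk16 a further start, whose window (chrX:20688176-20688425) held 0 such sites and is not shown because it overlaps annotated exons. The short site, searched on both strands, was present in 17.8% of the 32851 windows of 250 bases in the same table, and the full element TGACGTCA, which contains it, in 1.55%. The match is a description of these letters, and nothing about binding was measured. Cdk17 had no window in the table, and the Stub1 window overlaps annotated exons and is not shown.

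Library totals ranged over 22.2 to 105.9 M counts, and 10282 to 12953 genes had a count. A floor of 3 counts was worth 0.0283 to 0.135 CPM (counts scaled to an equal library total), which covers counting error only since no molecular identifiers tell copied reads from separate molecules. Replicate numbers marked 3 sets of libraries. Ribosomal protein genes held 18.9 to 26.2% of counts in replicates 1 to 3, 0.792 to 9.37% in replicates 4 to 6 and 8.98 to 14.7% in replicates 7 to 9. dDAVP library 6 had both the lowest ribosomal protein share and the fewest genes with a count. Aqp2, the aquaporin-2 transcript that dDAVP is given to raise, checked the labels. It was at 1050, 2637 and 2424 normalised CPM in dDAVP libraries 1 to 3, against 20.5, 23.1 and 27.9 in control libraries 1 to 3. Libraries 4 to 6 held 993, 1099 and 162 normalised CPM of it with dDAVP, against 48.2, 27.4 and 46.2 in control. Libraries 7 to 9 held 2764, 175 and 193 with dDAVP, against 10.9, 37.3 and 252 in control. The library labelled control 9 therefore lay above the libraries labelled dDAVP 8 and dDAVP 9 for Aqp2 on this scale. By FPKM the order was the other way, at 389 and 374 in dDAVP libraries 8 and 9 and 205 in control library 9, which was still far above the 17.8 and 35.2 of control libraries 7 and 8. The log2 fold changes over all libraries are therefore also given without replicates 7 to 9. Summed over 7 principal cell markers, the dDAVP libraries held 190.6 to 2939 normalised CPM and the control libraries 70.8 to 346.2, and most of that difference was Aqp2 itself. Scnn1a averaged 37.1 ± 37.4 normalised CPM with dDAVP and 37.3 ± 29.1 in control, Avpr2 averaged 38.2 ± 15.5 with dDAVP and 34.0 ± 13.0 in control, and Scnn1b averaged 1.35 ± 1.47 with dDAVP and 4.32 ± 4.86 in control (SD, n = 9 each). The median log2 fold change of the 5 tested was -0.0074 without covariates, and the principal cell marker Aqp4 and the intercalated cell factor Foxi1 were each at 0 in 16 of 18 libraries. The 5 intercalated cell markers summed to 0.120 to 19.7 normalised CPM with dDAVP and 0.0417 to 13.7 in control. The 5 fibroblast and immune markers in the table summed to 0 to 13.8 normalised CPM with dDAVP and 0.387 to 8.30 in control.

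Over all libraries the lowest, median and highest normalised CPM of Cdk18 were 30.3, 58.0 and 76.1 with dDAVP, against 13.4, 28.4 and 49.8 in control, so the ranges overlapped. For 8 of 9 replicate numbers the dDAVP library was the higher. The labels do not pair equal numbers, and within sets their deviations correlated at only -0.581 to 0.288. Since Cdk18 was chosen for this response and no share of all genes was taken, nothing is read from that count. In RNA from whole monolayers, fewer cells that hold a transcript and less of it per cell cannot be told apart. Normalised CPM are CPM computed after TMM scaling of the library totals. The TMM factors, by which the totals are multiplied, ran from 0.306 in dDAVP library 6 to 3.16 in dDAVP library 8. They were 2.76 in dDAVP library 9 and 1.16 in control library 9, so orders between libraries can differ between this scale and FPKM. The edgeR log2 fold change of Cdk18 was 0.93 (SE 0.35), or 1.91-fold, without covariates, and 0.91 (SE 0.29) with the replicate set as a term. Without replicates 7 to 9 these values were 0.88 and 0.83.

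**Figure D1:**
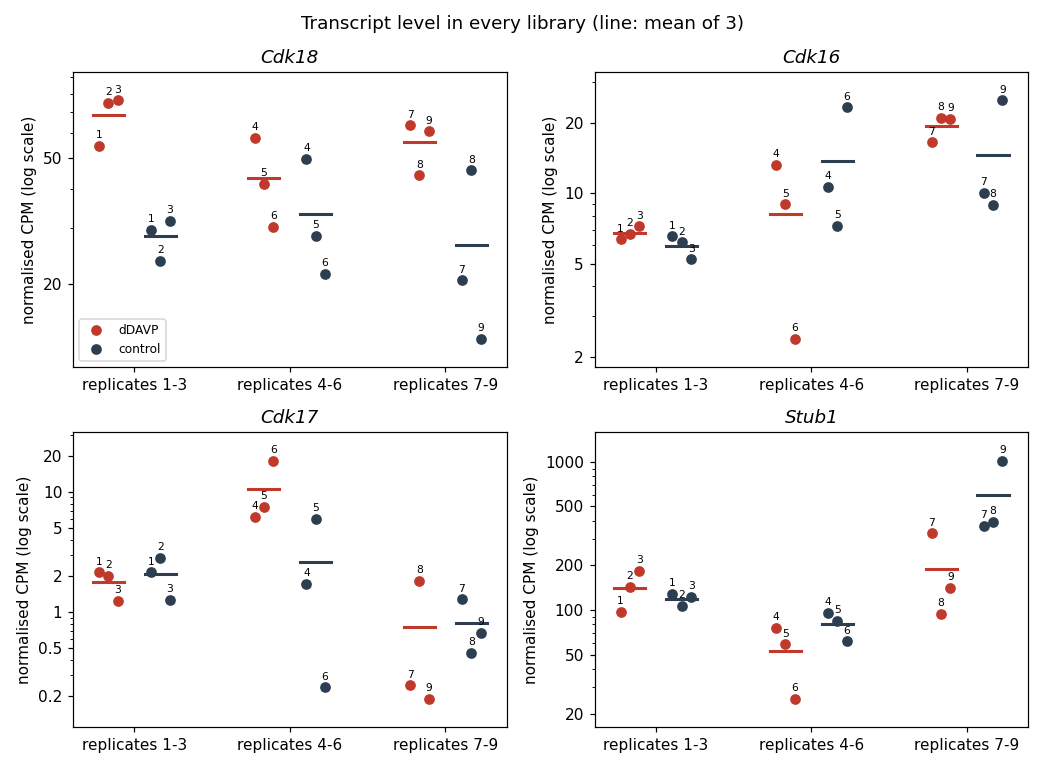
Normalised CPM on a log axis for Cdk18, Cdk16, Cdk17 and Stub1 in each library, dDAVP left of control within each set of replicate numbers, with the replicate number above each point and a line at the mean of 3. The Cdk18 points of dDAVP replicates 1 to 3 lie at 54.6 to 76.1 and those of control replicates 1 to 3 at 23.6 to 31.7, and the Stub1 point of control replicate 9 lies at 1018.

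The separation was clearest in replicates 1 to 3. There Cdk18 was at 54.6, 74.7 and 76.1 normalised CPM in dDAVP libraries 1, 2 and 3, against 29.6, 23.6 and 31.7 in control libraries 1, 2 and 3, a log2 fold change of 1.20 (SE 0.23), or 2.30-fold. Every dDAVP library lay above every control library, as it did for 7.11% of the 10121 genes tested, and since Cdk18 was chosen for this response nothing is read from that share. For replicates 4 to 6 the values were 58.0, 41.3 and 30.3 with dDAVP, against 49.8, 28.4 and 21.4 in control. The groups overlapped, although each dDAVP library lay above the control library of its own number, and the log2 fold change was 0.33 (SE 0.48). That value was 0.67 without control library 4, 0.087 without control library 6 and 0.089 without dDAVP library 4. For replicates 7 to 9 the values were 63.5, 44.0 and 60.7 with dDAVP, against 20.5, 45.7 and 13.4 in control, with a log2 fold change of 1.06 (SE 0.70). Control library 8 lay just above dDAVP library 8, the 1 number with the opposite order, and without control library 8 the log2 fold change in that set was 1.64.

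FPKM, which the authors scaled by gene length and library total, gave Cdk18 15.9 to 17.6 in dDAVP replicates 1 to 3, against 6.28 to 8.35 in control replicates 1 to 3. Replicates 4 to 6 gave 12.5, 13.3 and 3.04 FPKM with dDAVP, against 8.94, 11.4 and 6.505 in control, and dDAVP library 6 was the lowest of the 18. Replicates 7 to 9 gave 27.1, 45.6 and 54.8 FPKM with dDAVP, against 15.6, 20.1 and 5.07 in control. On this scale the groups of that set did not overlap, while by normalised CPM they overlapped. With library totals, the scaling that FPKM uses, the median log2 fold change of all genes in that set was 0.54. Cdk18 was at 1.65 there, or 1.11 relative to that median. No share of all genes was taken by FPKM, so nothing is read from the separation. Ordered by mean normalised CPM, the 3 dDAVP groups ranked above the 3 control groups. The dDAVP means were 68.5 in replicates 1 to 3, 56.1 in replicates 7 to 9 and 43.2 in replicates 4 to 6, and the control means were 33.2 in replicates 4 to 6, 28.3 in replicates 1 to 3 and 26.5 in replicates 7 to 9. Each group's range overlapped that of its neighbour in this order.

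Cdk16 showed no change with dDAVP that passed the test. Over all libraries its lowest, median and highest values were 2.395, 8.98 and 21.0 normalised CPM with dDAVP, against 5.23, 8.92 and 24.9 in control. The log2 fold change was 0.00 (SE 0.46, edgeR adjusted p = 1), with a 95% interval of -0.95 to 0.96, and with the set term it was -0.05 (SE 0.36, edgeR adjusted p = 0.991). Without replicates 7 to 9 these values were -0.40 and -0.31, and the sign turned with several other settings. Without covariates 0 of 10121 genes were called at an adjusted p under 0.05 by edgeR (percent called 0), while 218 had an unadjusted p under 0.05 and DESeq2 called 6. Aqp2 itself did not pass in that fit, at a log2 fold change of 4.54 (edgeR adjusted p = 0.203), so the fit can miss large differences. In replicates 1 to 3 Cdk16 was at 6.36, 6.71 and 7.22 normalised CPM with dDAVP, against 6.54, 6.17 and 5.23 in control. These groups overlapped narrowly, with a log2 fold change of 0.11 (SE 0.28, edgeR adjusted p = 0.895) where 0.456% of genes, 41 of 8991, were called. That count ran over 13 to 38 when any library of the set other than dDAVP 1 was left out, and was 774 without dDAVP library 1. In replicates 4 to 6 it was at 13.2, 8.98 and 2.395 with dDAVP, against 10.7, 7.26 and 23.3 in control. The low value of dDAVP library 6 rests on 20 counts and the high value of control library 6 on 788, and without control library 6 the log2 fold change of -0.80 (SE 0.72, edgeR adjusted p = 0.999) became -0.21. In replicates 7 to 9 it was at 16.5, 21.0 and 20.9 with dDAVP, against 10.1, 8.92 and 24.9 in control. Control library 9 was the highest of all 18 and controls 7 and 8 lay below every dDAVP library of the set, and the log2 fold change of 0.35 (SE 0.72, edgeR adjusted p = 0.976) became 1.02 without control library 9.

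Cdk17 had 8 to 380 counts per library, and no change with dDAVP passed the test. Over all libraries its lowest, median and highest values were 0.190, 2.00 and 18.2 normalised CPM with dDAVP, against 0.237, 1.28 and 5.95 in control. Its log2 fold change was 1.25 (SE 0.78, edgeR adjusted p = 1) without covariates and 0.54 (SE 0.61, edgeR adjusted p = 0.940) with the set term. Without replicates 7 to 9 these values were 1.44 and 0.95, and without dDAVP library 6 the value without covariates was 0.53. The positive value came with replicates 4 to 6, where Cdk17 was at 6.24, 7.49 and 18.2 normalised CPM with dDAVP, against 1.72, 5.95 and 0.237 in control. Every dDAVP library lay above every control library there, as it did for 5.28% of genes, yet the log2 fold change of 1.90 (SE 1.05) did not pass the test (edgeR adjusted p = 0.999). In that set 0 of 10387 genes were called by edgeR (percent called 0), against 479 with an unadjusted p under 0.05 and 38 called by DESeq2. By FPKM the same groups overlapped, at 1.12, 2.02 and 1.53 with dDAVP and 0.259, 2.00 and 0.0601 in control. Without replicates 4 to 6 the log2 fold change over the other libraries was -0.18 without covariates. In replicates 1 to 3 Cdk17 was at 2.15, 2.00 and 1.24 with dDAVP and 2.14, 2.85 and 1.26 in control, and in replicates 7 to 9 at 0.247, 1.81 and 0.190 with dDAVP and 1.28, 0.457 and 0.676 in control. The groups overlapped in both sets, with log2 fold changes of -0.26 (SE 0.42, edgeR adjusted p = 0.822) and -0.10 (SE 1.39, edgeR adjusted p = 0.998). Elk3, a gene on the other strand that shares 316 exonic bases with Cdk17, had 18 to 630 counts per library. The strand setting of the counting is not given in the sources used here, so reads of the shared stretch cannot be assigned to one of the pair.

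No difference in Stub1 between dDAVP and control passed the test. Its values with dDAVP lay below those in control in replicates 7 to 9 and around them in replicates 1 to 3. Over all libraries its lowest, median and highest values were 25.2, 97.6 and 329 normalised CPM with dDAVP, against 61.4, 122 and 1018 in control. The dDAVP library was the higher for 2 of 9 replicate numbers, which the labels do not give as pairs. No share of all genes was taken for that count, so nothing is read from it. The log2 fold change was -1.05 (SE 0.62, edgeR adjusted p = 1) without covariates and -0.67 (SE 0.36, edgeR adjusted p = 0.856) with the set term, where 0.079% of genes were called. Without replicates 7 to 9 these values became -0.06 and -0.20, and without control library 9 the value without covariates was -0.42.

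Stub1 in replicates 1 to 3 was at 97.6, 143 and 184 normalised CPM with dDAVP, against 128, 107 and 122 in control, so the control libraries lay inside the range of the dDAVP libraries. The log2 fold change was 0.16 (SE 0.24, edgeR adjusted p = 0.811). In replicates 4 to 6 it was at 76.0, 58.7 and 25.2 with dDAVP, against 96.2, 84.8 and 61.4 in control, with a log2 fold change of -0.68 (SE 0.50, edgeR adjusted p = 0.999). Each dDAVP library lay below the control library of its number while the groups overlapped, and without dDAVP library 6 the log2 fold change was -0.38. In replicates 7 to 9 it was at 329, 94.1 and 141 with dDAVP, against 368, 395 and 1018 in control. Every dDAVP library lay below every control library, as it did for 4.05% of genes, and the same held by FPKM, at 256, 178 and 232 with dDAVP and 511, 316 and 702 in control. The log2 fold change there was -1.73 (SE 0.88, edgeR adjusted p = 0.938) and became -1.04 without control library 9, the control library with the high Aqp2. In that set 0 of 11367 genes were called by edgeR (percent called 0), against 590 with an unadjusted p under 0.05, 158 called by DESeq2 and 98 called by edgeR without dDAVP library 7. Jmjd8, which lies on the other strand and shares 1084 exonic bases with Stub1, had 91 to 9440 counts per library, and its log2 fold change in replicates 7 to 9 was 0.53 (SE 0.82, edgeR adjusted p = 0.967). The part of the overlap in the Stub1 counts was not tested. The ribosomal RNA precursor Rn45s held 0.847, 0.268 and 0.213% of counts in dDAVP libraries 7, 8 and 9, against 2.13, 0.784 and 3.04% in control libraries 7, 8 and 9, so the groups overlapped and each dDAVP library lay below the control library of its number. Its part in the Stub1 difference was not tested.

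**Figure D2:**
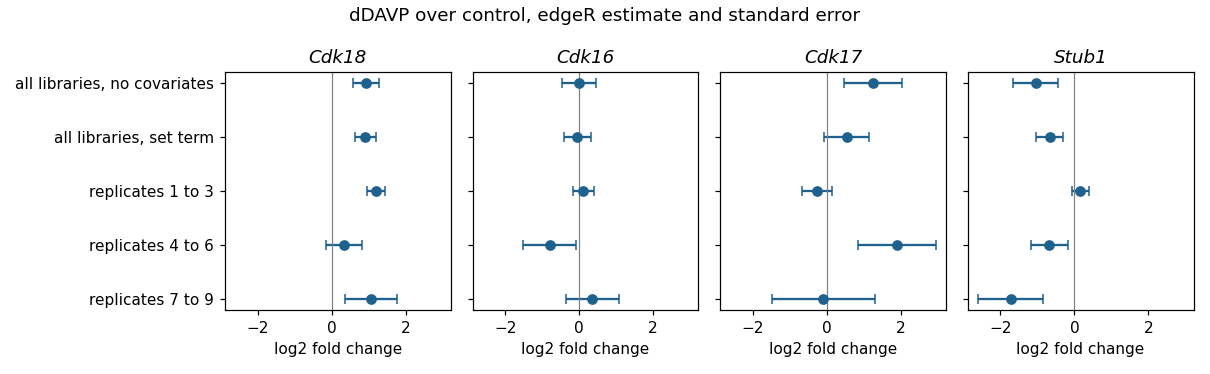
edgeR log2 fold change of dDAVP over control with its standard error for Cdk18, Cdk16, Cdk17 and Stub1, over all libraries without covariates, over all libraries with the replicate set as a term, and within each set. Cdk18 lies to the right of 0 in every fit, at 0.33 to 1.20, while Cdk16, Cdk17 and Stub1 lie on both sides. Cdk18 was chosen for this response and the fits share libraries, so nothing is read from that contrast. Its bar for replicates 4 to 6 (SE 0.48) crosses 0.

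Whether the response differed between sets was tested by the interaction of set and treatment. It was called for 0 of 10121 genes by edgeR (percent called 0), while 671 had an unadjusted p under 0.05. The adjusted p was 0.988 for Cdk16, 0.962 for Cdk17 and 0.825 for Stub1, so a different response of these 3 transcripts between sets was not shown.

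Levels were compared between genes per length, by FPKM. Stub1 stood above each of the 3 kinases in 18 of 18 libraries, with 4.60, 57.4 and 256 FPKM as its lowest, median and highest value with dDAVP and 31.4, 58.7 and 702 in control. Among the 3 kinases Cdk18 had the largest FPKM in 16 of 18 libraries, and Cdk16 exceeded it in control libraries 6 and 9. Cdk17 had the smallest in 17 of 18, the exception being dDAVP library 6, where Cdk16 was lower.

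As a share of the summed FPKM of the 3 kinases, which does not depend on the scaling between libraries, Cdk18 made up 77.6 ± 9.84% with dDAVP and 68.3 ± 17.0% in control (SD, n = 9 each). Within replicates 1 to 3 the share was 87.0, 89.9 and 90.2% with dDAVP, against 78.0, 73.4 and 83.4% in control, so the groups did not overlap. Within replicates 4 to 6 it was 75.9, 73.0 and 63.2% with dDAVP, against 80.4, 69.8 and 47.6% in control, and in replicates 7 to 9 it was 79.1, 66.1 and 74.3% with dDAVP, against 64.7, 83.1 and 34.4% in control. Both sets overlapped, and the lowest 2 shares were those of control libraries 9 and 6, where Cdk16 took 64.1 and 51.9%. The Cdk17 share reached 31.8% in dDAVP library 6 and stayed at or under 12.3% in the other libraries. These shares use the same counts that led to the choice of Cdk18 and are given without a test.

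**Figure D3:**
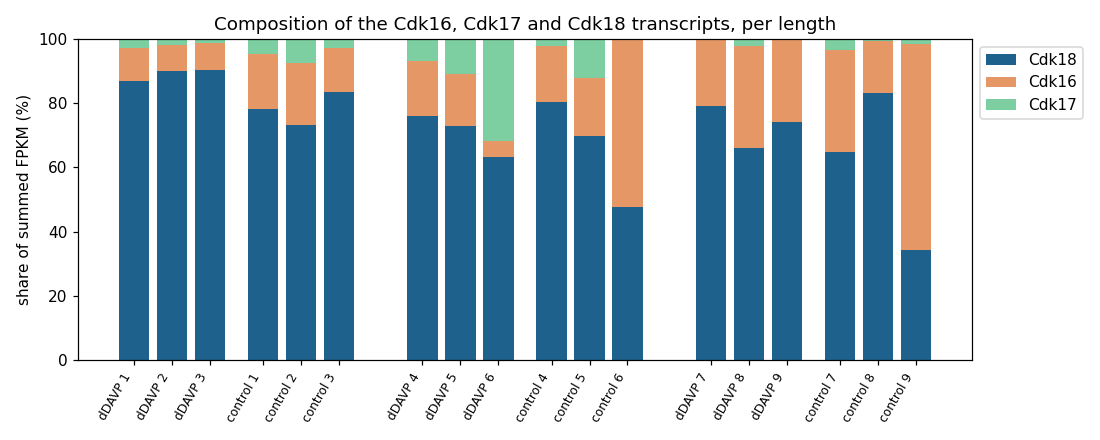
Share of the summed FPKM of Cdk16, Cdk17 and Cdk18 held by each kinase in every library, in percent, dDAVP left of control within each set. Cdk18 fills 87.0 to 90.2% of the bars of dDAVP replicates 1 to 3 and 73.4 to 83.4% of those of control replicates 1 to 3, and Cdk16 fills 64.1% of the bar of control replicate 9.

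The level itself differed between sets for 3 of the 4, by an edgeR F test over the sets with treatment as a covariate, a measure that the choice of Cdk18 did not use. The adjusted p was 0.000145 for Stub1, 0.00525 for Cdk17 and 0.0183 for Cdk16, and 0.817 for Cdk18. Such a difference was common, since 78% of the genes were called. Between sets the median of all genes was itself above 0, at a log2 difference of 0.51 for replicates 4 to 6 against 1 to 3, 0.54 for 7 to 9 against 1 to 3 and 0.31 for 7 to 9 against 4 to 6. With library totals in place of TMM scaling these medians became 0.52, 1.92 and 1.68, so single differences are also given relative to the median. The calls split into 3945 higher and 2504 lower for replicates 7 to 9 against 1 to 3, and into 5809 higher and 802 lower with library totals. For replicates 7 to 9 against 4 to 6 they split into 2847 higher and 2034 lower, and into 5455 higher and 819 lower with library totals. The ribosomal protein share and the library total also differed between sets, and Rn45s held 0.213 to 3.04% of counts in replicates 7 to 9, against at most 0.00682% in the other sets. Their part in these levels was not tested.

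Stub1 was highest in replicates 7 to 9. Its log2 difference was 2.43 (SE 0.45, edgeR adjusted p = 0.000147) against replicates 4 to 6, where 48.2% of genes were called, and 1.37 (SE 0.45, edgeR adjusted p = 0.0103) against replicates 1 to 3, where 63.7% were called. Relative to the median gene these were 2.12 and 0.84, and 1.78 and 0.57 with library totals. Without control library 9 the difference from replicates 1 to 3 was 0.80 and no longer passed (edgeR adjusted p = 0.0646). Replicates 4 to 6 lay below replicates 1 to 3 by a log2 difference of -1.06 (SE 0.43, edgeR adjusted p = 0.0419, with 55.9% of genes called), or -1.57 relative to the median, and that call was lost when any 1 of 6 libraries was left out (control 5 or 6, or dDAVP 2, 3, 5 or 6), at -0.87 to -1.11.

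Cdk17 was lower in replicates 7 to 9 than in replicates 4 to 6, with a log2 difference of -2.91 (SE 0.78, edgeR adjusted p = 0.00375), or -3.22 relative to the median. With library totals it was -1.19 (edgeR adjusted p = 0.205), or -2.86 relative to the median. Its differences of 1.58 for replicates 4 to 6 against 1 to 3 (SE 0.75, edgeR adjusted p = 0.0772) and -1.33 for 7 to 9 against 1 to 3 (SE 0.72, edgeR adjusted p = 0.111) did not pass, although the first did without control library 6, at 1.92 (edgeR adjusted p = 0.0216).

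Cdk16 was higher in replicates 7 to 9 than in replicates 1 to 3, with a log2 difference of 1.42 (SE 0.44, edgeR adjusted p = 0.00727), or 0.88 relative to the median and 0.90 with library totals. Its differences involving replicates 4 to 6 were 0.78 against replicates 1 to 3 (SE 0.44, edgeR adjusted p = 0.132) and 0.64 for replicates 7 to 9 against 4 to 6 (SE 0.44, edgeR adjusted p = 0.233). The first of these passed without dDAVP library 6, at 0.998 (edgeR adjusted p = 0.0300).

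Cdk18 showed log2 differences of -0.20 (SE 0.36) for replicates 4 to 6 against 1 to 3, -0.20 (SE 0.35) for 7 to 9 against 1 to 3 and 0.00 (SE 0.36) for 7 to 9 against 4 to 6, with edgeR adjusted p of 0.643, 0.637 and 0.993. Their 95% intervals ran over -0.94 to 0.53, -0.93 to 0.53 and -0.74 to 0.74. With library totals the difference between replicates 7 to 9 and 1 to 3 became 1.16 (edgeR adjusted p = 0.0316) and that between 7 to 9 and 4 to 6 became 1.34 (edgeR adjusted p = 0.0172). Relative to the median gene, Cdk18 stood at -0.74 with TMM scaling and -0.76 with library totals for replicates 7 to 9 against 1 to 3.

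Each transcript's pattern over the 18 libraries was set beside those of 9338 genes with a mean of at least 1 normalised CPM, by Pearson correlation of log2(normalised CPM + 1). The libraries share their sets and treatments, so the correlations are descriptions. For Cdk18 the genes with the most similar pattern were Itfg3 (r = 0.87), Cluh (r = 0.83), which encodes an RNA-binding protein of mitochondrial transcripts, and Scamp2 (r = 0.80), which encodes a secretory carrier membrane protein. Aqp2 ranked 26 of 9338 with r = 0.67. After the mean of each set was subtracted, the most similar were Fcgbp, Wbp1l and Got2, the last a mitochondrial aminotransferase, each at r = 0.92, and Aqp2 ranked 312 with r = 0.67. Cdk18 was picked for its response to dDAVP, which is given to raise Aqp2, so nothing is read from these ranks. Over the 18 libraries Aqp2 ranked 4568 for Cdk16, 3635 for Cdk17 and 5042 for Stub1.

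**Figure D4:**
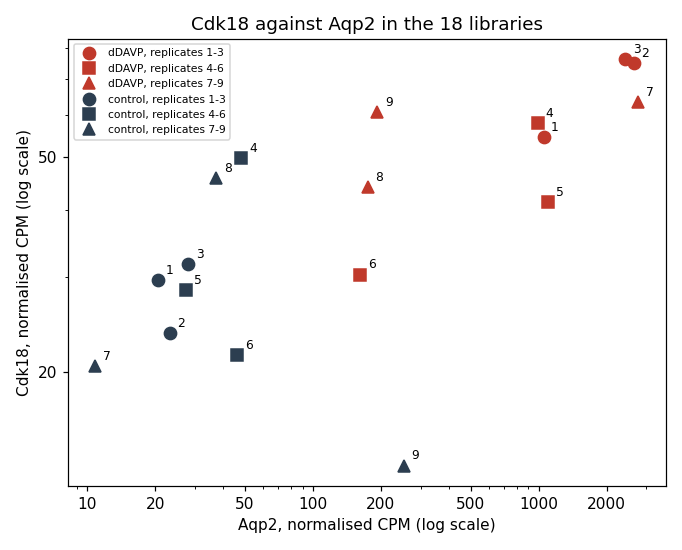
Normalised CPM of Cdk18 against that of Aqp2 in the 18 libraries, both on log axes, coloured by treatment and shaped by replicate set, with replicate numbers. Control replicate 9 has the lowest Cdk18 of all libraries, at 13.4, with an Aqp2 of 252, while dDAVP replicates 2 and 3 have the highest Cdk18, at 74.7 and 76.1, with Aqp2 at 2637 and 2424.

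Itfg3 averaged 113 ± 61.4 normalised CPM with dDAVP and 67.5 ± 49.5 in control, and Fcgbp averaged 217 ± 172 with dDAVP and 82.7 ± 48.3 in control (SD, n = 9 each). For Cdk16 the most similar genes were Ccdc74a, Ick and Atf5, for Cdk17 they were Dmd, Zfp157 and Tmem209, and for Stub1 they were Rnaseh2c, Mvb12a and Mgat4b. After subtraction of set means they were Maml1, Wdyhv1 and Trim13 for Cdk16, Zfp790, Gpr160 and Zfp157 for Cdk17, and F8a, Oaz1 and Tbcc for Stub1, so Zfp157 alone appeared on both scales. By Spearman correlation in place of Pearson over the 18 libraries, 3 of the first 3 stayed for Cdk16, 2 for Cdk17, 1 for Cdk18 and 1 for Stub1. Among the 4 transcripts themselves, Cdk17 ran opposite to Stub1 (r = -0.67) and to Cdk16 (r = -0.63), Cdk16 and Stub1 had r = 0.43, and Cdk18 had r = -0.09 with Cdk16, -0.04 with Cdk17 and -0.17 with Stub1. After subtraction of set means Cdk17 had r = -0.35 with Stub1 and -0.69 with Cdk16, Cdk16 and Stub1 had r = 0.23, and Cdk18 had 0.012 with Cdk16, -0.049 with Cdk17 and -0.27 with Stub1.

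Other genes of the same pathways were read from 5 lists. Of all genes tested, 0.079% were called with the set term, 0.456% in replicates 1 to 3 and 0% in the other fits. A list with 0 called is therefore near the share over all genes, and nothing about a family is read from it. Of the 8 cyclin partners and closest Cdk relatives, 4 passed the filter on low counts over all libraries, and 0 were called in any of the 5 fits. Their median log2 fold change was -0.25 with the set term (2 of 4 positive), against 0.02 over all genes, and 0.30 without covariates (3 of 4 positive), against 0.05. Within sets it was -0.28 in replicates 1 to 3, 0.44 in replicates 4 to 6, with 5 of 5 tested positive, and -0.39 in replicates 7 to 9. The most abundant were Ccna2, a cyclin of S phase and mitosis, at 204 ± 121 normalised CPM with dDAVP and 379 ± 284 in control (SD, n = 9 each), and Cdk14, a PFTAIRE kinase that also binds cyclin Y, at 0 to 412 with dDAVP and 1.14 to 142 in control. For Cdk14 the log2 fold change was 0.80 (SE 1.42) without covariates and -0.74 (SE 0.73) with the set term. Ccny, the cyclin that activates Cdk16, was at 5.21 ± 4.13 with dDAVP and 3.83 ± 3.12 in control, and was looked at after its values were seen. Of 13 other Cdk family kinases, all 13 were tested and 0 were called, with a median of 0.06 against 0.02. Cdk4, which drives entry into the cell cycle, was at 1397 ± 1199 normalised CPM with dDAVP and 1472 ± 1443 in control, and Cdk12, a kinase of RNA polymerase II, at 0 to 676 with dDAVP and 0.428 to 101 in control, with a log2 fold change of 1.78 (SE 1.58) without covariates and 0.22 (SE 0.70) with the set term.

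Of the 15 chaperones and co-chaperones of Stub1, 13 were tested over all libraries and 0 were called, with a median log2 fold change of -0.03 with the set term against 0.02 over all genes. Hspa8, the constitutive Hsp70 that Stub1 binds, was at 2962 ± 3986 normalised CPM with dDAVP and 2983 ± 3954 in control, and Hsp90ab1 at 1535 ± 1675 with dDAVP and 1405 ± 1641 in control. Of 7 ubiquitin enzymes that work with Stub1, all 7 were tested and 0 were called, with a median of -0.47 with the set term. In replicates 7 to 9, 0 of these 7 had a positive log2 fold change and their median was -1.66, against -0.03 over all genes. The share of all genes with a positive value was not taken, so nothing is read from that count. Of the other 4 lists of these pathways, 3 also had medians below that of all genes there, at -0.57 for the chaperones (5 of 15 positive), -0.41 for the other ubiquitin enzymes (2 of 10 positive) and -0.39 for the cyclin partners (2 of 5 positive), while the other Cdk family kinases were at -0.02 (6 of 13 positive). Ube2d3, a conjugating enzyme that hands ubiquitin to Stub1, had a log2 fold change of -1.91 in that set (SE 0.78, edgeR adjusted p = 0.938), and Ube2d2a of -2.81 (SE 1.01, edgeR adjusted p = 0.896). These values use TMM scaling, and with library totals the median of all genes in replicates 7 to 9 was 0.54. In replicates 1 to 3 the median of the same 7 enzymes was -0.27 and in replicates 4 to 6 it was -0.07. Of 10 other ubiquitin enzymes of collecting duct transporters, all 10 were tested and 0 were called, with a median of -0.03 with the set term. Nedd4, a relative of the ligase that acts on the epithelial sodium channel, was at 460 ± 494 normalised CPM with dDAVP and 612 ± 685 in control, and Cul5, a scaffold of ubiquitin ligases, at 1.24 to 722 with dDAVP and 1.67 to 142 in control. For Cul5 the log2 fold change was 1.25 (SE 1.22) without covariates and -0.41 (SE 0.74) with the set term.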

How the data were processed

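RNA sequencing of 9 dDAVP and 9 control libraries of mpkCCD cells was used, grouped by labelled treatment. The labels' protocols give an input of 20 ng RNA, 50 bp single-end reads, and both a low-input kit and a single-cell style protocol that are not tied to libraries. The build was mm10 and the tools HTSeq, SAMtools and STAR 2.4.0.1, per the submitters' processing notes. Strand setting and annotation release are not given in the sources used here. The deposited count table holds the authors' raw whole-number counts per gene symbol. The deposited FPKM table holds values that the authors scaled by gene length and library total: count divided by FPKM, once scaled by library totals, varied by a median of 0.0193%.

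Counts were tested with edgeR 4.0.16 (quasi-likelihood, TMM, filterByExpr, R 4.3.3), two-sided, with Benjamini-Hochberg adjustment over all genes tested and a threshold of 0.05. The fits were also run on simulated counts, with means and spread taken from these libraries. Changes were placed in 200 genes drawn from the more abundant ones, which leaves out genes as low as Cdk17. In them the fit without covariates recovered 1.51% of 4-fold changes, against 85.4% with the set term and 96.4% in replicates 1 to 3. Of 16-fold changes the fit without covariates recovered 79.4%. In replicates 1 to 3, 3.63% of the calls were false at 4-fold and 5.85% at 16-fold. A missing call in the fit without covariates therefore does not show that a transcript was unchanged. Intervals are at 95%. The fit without covariates was planned from the labels; the set term, the fits within sets, the members, the 8 gene lists and the rule for named genes were chosen with earlier results of these data known. The rule named the 4 members, Aqp2 and the 3 genes most like each member. It also named called genes of each list and otherwise its 2 most abundant. The 3 marker lists only checked the cells. Aqp2 was their 1 called gene, and it was called only with the set term and in replicates 1 to 3. Its log2 fold change was 4.14 in replicates 4 to 6 (edgeR adjusted p = 0.772) and 3.31 in replicates 7 to 9 (edgeR adjusted p = 0.938). A large difference can therefore miss the threshold in those fits. Alternatives were DESeq2 1.42.0, its size factors, library totals, no filter, limma 3.58.1 with voom quality weights, limma on log2(FPKM + 1) and log2(FPKM + 0.1), a replicate block, and libraries left out. Leaving out a whole set was added after seeing the data.

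Within a group, no pair of libraries came closer than a chi-square of 65.9 per degree of freedom, so none was counted as a duplicate. Deviations from group means of libraries with the same number correlated at r = 0.315 to 0.871 over 9 numbers, and at -0.581 to 0.288 once set means were removed, so the numbers pair libraries mainly through the sets.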

Additional observations from a re-analysis of the deposited data

Results flagged for a closer look

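Of the 22 series of values checked for a library far from the others, 5 had one, where chance gives about 1 in 20 for separate series. These series reuse the same libraries and counts, so the 5 are not separate events and no excess is read from them. Cdk17 stood apart in dDAVP replicate 6, at 18.2 normalised CPM, where the other dDAVP libraries ran up to 7.49. The TMM factor of that library, 0.306, was the lowest of all. By FPKM Cdk17 was at 1.53 there, below the 2.02 of dDAVP replicate 5 and the 1.57 of dDAVP replicate 8. The Cdk17 share of the summed FPKM of the 3 kinases in dDAVP replicate 6, 31.8%, was also far above the rest of its group. That sum was the lowest of all libraries, at 4.81 FPKM, with Cdk16 on 20 counts and Cdk18 on 253. Among the control libraries Cdk17 stood apart in replicate 5, at 5.95 normalised CPM and at 2.00 FPKM. Stub1 stood apart in control replicate 9, at 1018 normalised CPM, where the next control library was at 395. Aqp2 in that library was the highest of the control libraries, at 252 normalised CPM.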

How the results depend on the processing

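Cdk16, Cdk17 and Stub1 passed the test for dDAVP in none of the alternatives run. The log2 fold change of Cdk18 was positive in all of them, and since it was chosen for this response nothing is read from that sign. Apart from the fits with 1 library left out, given below, it ran over 0.74 to 1.22 without covariates and 0.73 to 1.18 with the set term. Within sets it ran over 1.19 to 1.26 in replicates 1 to 3, 0.10 to 0.37 in replicates 4 to 6 and 1.07 to 1.65 in replicates 7 to 9. Among the 4 transcripts Cdk17 had the lowest count, 8 in control library 6, a library of 36.5 M counts.

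Without covariates Cdk16 turned to -0.083 with DESeq2 size factors, -0.080 with DESeq2, -0.015 without a filter, -0.0052 on log2(FPKM + 0.1), -0.032 without replicates 1 to 3 and -0.40 without replicates 7 to 9. With the set term it turned to 0.13 with library totals, 0.14 with quality weights, 0.12 on log2(FPKM + 1) with or without a filter, 0.30 without replicates 4 to 6 and 0.055 with a replicate block. Stub1 turned to 0.037 without covariates and 0.0041 with the set term under quality weights. Without replicates 4 to 6 Cdk17 turned to -0.18 without covariates and -0.15 with the set term, and in replicates 7 to 9 it was 0.59 with library totals. The cause was not tested for any of these.

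Calls without covariates numbered 6 with DESeq2, 11 with quality weights, 2 on each FPKM scale, 2 without replicates 7 to 9 and 1 with the replicate block, against 0. With the set term they numbered 5 with library totals, 40 with DESeq2, 118 with quality weights, 4, 4 and 3 on the FPKM scales, 0 without replicates 1 to 3 or 4 to 6 and 1 with the replicate block, against 8. Within replicates 1 to 3 they numbered 207 without a filter, 113 with DESeq2 and 101 with the replicate block, against 41. Within replicates 4 to 6 they numbered 1 with library totals, 1 without a filter and 38 with DESeq2, against 0. Within replicates 7 to 9 they numbered 7 with library totals, 30 without a filter, 158 with DESeq2 and 3 with the replicate block, against 0. The block changed no call of a member.

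Between sets, library totals gave Stub1 -0.96 for replicates 4 to 6 against 1 to 3 (no longer called). They gave 0.21 for Cdk17 and 1.16 for Cdk18 for 7 to 9 against 1 to 3, and 1.90 for Cdk16 (called), -1.19 for Cdk17 (no longer called) and 1.34 for Cdk18 (called) for 7 to 9 against 4 to 6.

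With 1 library left out at a time, the log2 fold change without covariates of Cdk16 ran over -0.22 to 0.21, Cdk17 over 0.53 to 1.72, Cdk18 over 0.82 to 1.06, Stub1 over -1.41 to -0.42 and the number of calls over 0 to 1. With the set term Cdk16 ran over -0.23 to 0.17, Cdk17 over 0.13 to 0.72, Cdk18 over 0.79 to 1.07, Stub1 over -0.79 to -0.46 and the number of calls over 4 to 9. For replicates 1 to 3 Cdk16 ran over -0.010 to 0.19, Cdk17 over -0.55 to 0.099, Cdk18 over 1.14 to 1.29, Stub1 over -0.013 to 0.34 and the number of calls over 13 to 774. For replicates 4 to 6 Cdk16 ran over -1.30 to -0.21, Cdk17 over 1.18 to 3.53, Cdk18 over 0.087 to 0.67, Stub1 over -1.003 to -0.38 and the number of calls over 0 to 2. For replicates 7 to 9 Cdk16 ran over 0.075 to 1.02, Cdk17 over -1.97 to 0.62, Cdk18 over 0.76 to 1.64, Stub1 over -2.40 to -1.04 and the number of calls over 0 to 98. Between the levels of replicates 4 to 6 and 1 to 3 Cdk16 ran over 0.40 to 1.00, Cdk17 over 1.09 to 1.92, Cdk18 over -0.46 to -0.084, Stub1 over -1.24 to -0.87 and the number of calls over 5164 to 5975. Between those of 7 to 9 and 1 to 3 Cdk16 ran over 1.09 to 1.45, Cdk17 over -1.88 to -1.11, Cdk18 over -0.56 to -0.15, Stub1 over 0.80 to 1.54 and the number of calls over 6031 to 6799. Between those of 7 to 9 and 4 to 6 Cdk16 ran over 0.40 to 1.00, Cdk17 over -3.51 to -2.43, Cdk18 over -0.20 to 0.25, Stub1 over 2.00 to 2.70 and the number of calls over 4346 to 5267.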
